A study of Mus musculus with 8 samples.

Results

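Cardiac precursors (CP, day 5.3) were compared with the embryonic stem cells (ESC, day 0) from which they were derived, across the 13540 genes for which a level was given at both stages. Every gene of the table entered the comparison, and the groups of genes described in what follows come from 42 lists with 587 different genes in the table. The study took mouse stem cells of strain 129/Ola through 4 stages of directed differentiation to heart muscle: ESC, mesoderm (MES, day 4), CP and cardiomyocytes (CM, day 10). Each stage had 2 libraries, 8 in all, described as biological duplicates. For the 3 later stages the cells grew as embryoid bodies, floating aggregates, for 2 days without serum, were taken apart and reaggregated in human VEGF, Activin A and BMP4, and were plated in VEGF together with basic FGF and FGF10. No genotype difference or other treatment separates ESC from CP: the groups differ in culture time, in these culture steps and in these factors together. All RNA came from whole cultures, with no sorting step in the labels.

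A mouse embryonic stem cell holds itself in a self-renewing state through a network of transcription factors around OCT4, SOX2 and NANOG. Activin and BMP signals carry such cells through a primitive-streak-like state into mesoderm, and part of that mesoderm becomes cardiac precursors, in which GATA, TBX, HAND, MEF2 and NKX2-5 factors act together on the genes of the contractile apparatus. Cardiac precursors arise in the embryo beside the precursors of endothelium and blood, with which they share early mesodermal markers.

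The level of a gene is given in RPKM, reads per kilobase of gene model per 1 M (1000000) mapped reads, and a difference is CP minus ESC of log2(RPKM + 1). The added 1 understates the difference of genes at low levels. A gene is called higher or lower where this difference is at least 1, which is 2-fold. The table gives 1 value per stage, so the spread between the 2 libraries is unknown and no difference could be tested against it. The ESC column rests on 75.3 M reads and the CP column on 64.8 M. Counting error is given as the exact 95% Poisson interval where whole reads could be recovered from the values, and it covers counting error only. In such whole-culture RNA, fewer cells of a type and less RNA per cell cannot be told apart.

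CP had 2318 genes (17.1%) at least 2-fold higher than ESC and 1888 (13.9%) at least 2-fold lower, while 9334 differed by less than 2-fold. The shares of 17.1% and 13.9% are the reference for each list count given below. The lists were drawn up with earlier results of these data known, so these counts are a description. With 4-fold as the minimum, 758 genes were higher and 496 lower, and with 64-fold 17 were higher and 16 lower. The median difference over all genes was 0.05. The larger count on the higher side depends on the scale: after quantile normalization 2020 genes were higher and 2064 lower. The share of genes on each side varied with the level in ESC. Of the 6291 genes at 1 to under 10 RPKM in ESC, 1140 (18.1%) were higher in CP and 822 (13.1%) lower, and of the 4729 at 10 to under 100 RPKM, 266 (5.6%) were higher and 936 (19.8%) lower. Of the 392 genes at 100 RPKM or more in ESC, 130 (33.2%) were lower in CP and 7 (1.8%) higher, whereas of the 2128 genes under 1 RPKM in ESC, 905 (42.5%) were higher. Part of this is built in, since a gene near 0 can only go up on this scale and each gene of the table exceeds 1 RPKM in at least 1 of the 4 stages. The ESC level is also the term subtracted, so grouping genes by it favours losses among genes high in ESC. Passages from under 1 RPKM in ESC to at least 10 in CP numbered 186 genes, of which 48 already stood at 10 RPKM or more in MES and 94 still did in CM. In the other direction, 115 genes went from at least 10 RPKM to under 1, and 81 of these were already under 1 RPKM in MES.

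**Figure D1:**
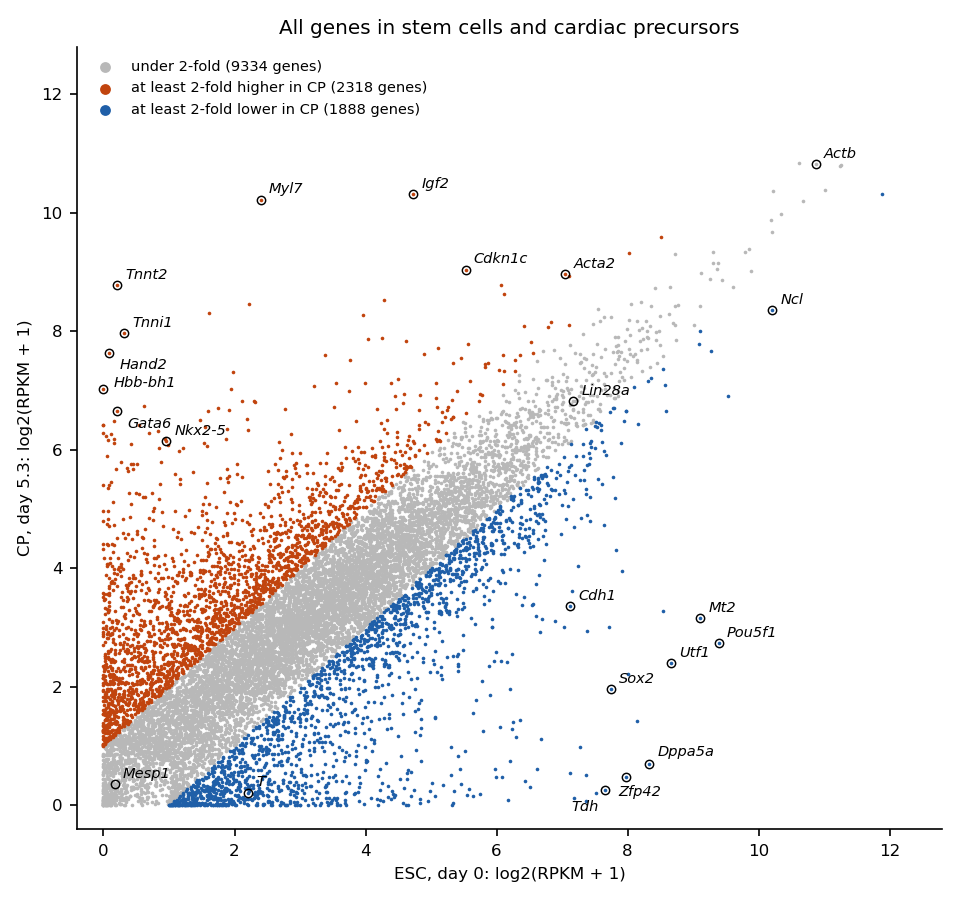
Each point is 1 of 13540 genes, with its level in ESC on the x axis and in CP on the y axis, both as log2(RPKM + 1). The 2318 genes at least 2-fold higher in CP are orange, the 1888 at least 2-fold lower are blue and the other 9334 grey. Tnnt2, Tnni1, Hand2 and Hbb-bh1 lie at the upper left, and Dppa5a, Zfp42 and Tdh at the lower right.

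The stage labels were checked first against marker genes. Pou5f1 (ENSMUSG00000024406), which encodes OCT4, stood at 670 RPKM in ESC and 5.65 in CP, after 76.4 in MES and before 0.0429 in CM. Nanog stood at 164 RPKM in ESC and 0.434 in CP, which is 63 reads with an interval of 0.333 to 0.555 RPKM. Nkx2-5 (ENSMUSG00000015579), an early cardiac homeobox gene, stood at 0.941 RPKM in ESC (108 reads, 0.772 to 1.14) and 70.1 in CP (6923 reads, 68.5 to 71.8). Isl1, which marks precursors of the second heart field, went from 0.142 RPKM in ESC to 49.9 in CP and was down to 14.3 in CM. Both sets of markers therefore sit where the labels ESC and CP place them. Markers of the preceding mesoderm had left: T, the brachyury gene, was at 53.2 RPKM in MES and 0.160 in CP, and Mesp1, which marks the earliest cardiac mesoderm, was at 148 RPKM in MES and 0.278 in CP. Mesp1 was near the limit of counting at both ends of the comparison, with 12 reads in ESC (0.0646 to 0.218 RPKM) and 23 in CP (0.176 to 0.418 RPKM), intervals that overlap.

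The pluripotency network was lower in CP almost throughout. Of the 14 genes listed as core pluripotency factors, 13 lay 2-fold or more below ESC and 0 above, against 13.9% lower over all genes, and their summed level went from 2759.4 RPKM in ESC to 404.7 in CP. Of 16 naive pluripotency genes, those of the preimplantation-like state of mouse stem cells, 15 were lower and 0 higher, and the sum went from 1345.1 to 24.8 RPKM. The median differences were -4.48 and -4.82. Both lists had most of this distance behind them in MES, where the medians relative to ESC were -3.77 and -4.55. MES, CP and CM are all set against the same ESC column, so their differences from it are not independent.

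Dppa5a, an RNA-binding protein gene of pluripotent cells, had the largest difference on the lower side, from 321 RPKM in ESC (14957 reads) to 0.623 in CP (25 reads, 0.403 to 0.920 RPKM), a difference of -7.63. Its transcript shares 56.1% of its 32-base words with other genes, so its level is uncertain if shared reads were split or dropped. Zfp42, which encodes REX1, went from 251 RPKM to 0.396 (47 reads, 0.291 to 0.527). Utf1, a chromatin-bound factor of stem cells, was at 405 RPKM in ESC and 4.29 in CP. Sox2 was at 213 RPKM in ESC, 2.57 in MES and 2.89 in CP, so it was already low before the precursor stage, while Pou5f1 still had 76.4 RPKM in MES. Fbxo15, an OCT4 target, went from 139 to 0.458 RPKM, and Nr0b1, which encodes the nuclear receptor DAX1, from 70.9 to 0.0683 RPKM (8 reads in CP, 0.0295 to 0.135 RPKM). The exceptions were few. Lin28a, whose protein blocks let-7 maturation, stood at 143 RPKM in ESC, 152 in MES and 113 in CP, and was at 2.94 in CM. Tbx3, in both the naive network and the early heart, was at 15.8 RPKM in ESC, 43.4 in MES and 7.85 in CP, a difference of -0.92.

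Genes of the primed, post-implantation epiblast were lower as well: 9 of 10 were at least 2-fold lower and 1 higher, with a median of -1.79. Foxd3, a forkhead repressor, went from 20.7 to 0.130 RPKM, and Dnmt3b, a de novo DNA methyltransferase, from 81.4 to 24.6. Zic2, a zinc finger gene of the epiblast, was higher in MES (40.7 RPKM) than in ESC (26.8) and was at 2.08 in CP. Germline genes that stem cells also express were lower in 12 of the 15 with a value and higher in 0, and 8 of the 15 stood at or under 0.1 RPKM in CP. Rpl10l, a germline copy of a ribosomal protein gene, went from 182 to 0.154 RPKM, and Tex19.1, which restrains retrotransposons, from 44.7 to 0.882. Another 5 germline genes were not analysed here.

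Outside these lists, the largest losses in RPKM itself included Ncl, the nucleolin gene, from 1180 to 326 RPKM, and Mt2, a metallothionein gene, from 551 to 7.94. Spp1, which encodes the secreted protein osteopontin, went from 165 RPKM in ESC to 0.0468 in CP, where 5 reads were counted (0.0152 to 0.109 RPKM). L1td1, an RNA-binding protein gene derived from a LINE-1 element, went from 282 to 1.68 RPKM. Each of these was already lower in MES, at 672, 7.59, 0.118 and 7.12 RPKM.

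The hairpin genes of the miR-290 to miR-295 cluster belong with this group of losses. They were not among the listed genes and were chosen after their values were seen. This cluster on chromosome 7 is known as a dominant source of miRNAs in mouse embryonic stem cells, and its products are known to speed the passage from G1 to S phase. All 6 of its entries in the table were at least 2-fold lower in CP, and of all 31 miRNA entries 11 were lower and 7 higher. The mature sequences are shown because 3 of the 6 entries carry the same seed, bases 2 to 8 counted from the 5′ end, which pairs with targets. The sequences are RefSeq's, with coordinates on GRCm38.p6, plus strand, and the seed is in capitals.
mmu-miR-291a-3p (chr7:3218968-3218989): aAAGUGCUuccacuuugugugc
mmu-miR-294-3p (chr7:3220691-3220712): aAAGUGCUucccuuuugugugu
mmu-miR-295-3p (chr7:3220815-3220837): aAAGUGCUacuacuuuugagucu
mmu-miR-291b-3p (chr7:3219529-3219550): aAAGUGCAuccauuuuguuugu
mmu-miR-293-3p (chr7:3220390-3220411): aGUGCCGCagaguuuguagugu
mmu-miR-292a-5p (chr7:3219200-3219221): aCUCAAACugggggcucuuuug
The first 3 share the seed AAGUGCU, and the seed of miR-291b-3p, AAGUGCA, is the same in its first 6 bases. The seed of miR-292a-5p, CUCAAAC, is from the other arm of the hairpin and is also that of miR-293-5p. The libraries were made from fragmented poly(A) RNA, so the values count pieces of longer transcripts that cover the hairpins, not the mature miRNAs. Mir295 stood at 38.9 RPKM in ESC (202 reads), 1.87 in MES and 0 reads in CP, which allows up to 0.671 RPKM by 3 reads, so the level was at least 57.9-fold lower. Mir294 stood at 17.2 RPKM in ESC (109 reads) with 0 reads in CP, at least 31.2-fold lower. Mir291a (60 reads in ESC) and Mir292 (67 reads) also had 0 reads in CP, at least 17.2-fold and 19.2-fold lower. Mir291b had 153 reads in ESC and 1 in CP, or 25.7 RPKM (21.8 to 30.1) and 0.195 (0.00495 to 1.09). Mir293 had 106 reads and 1, or 17.6 RPKM (14.4 to 21.3) and 0.193 (0.00489 to 1.08). In CM all 6 were at 0 reads. Among the miRNA entries that were higher in CP, Mir143 and Mir145, neighbours known from smooth muscle and early heart, had 0 reads in ESC and 13 and 43 reads in CP. Mir208a and Mir208b, which lie in introns of Myh6 and Myh7, had 0 reads in ESC and 1 in CP each, and 34 and 24 in CM, so at CP they were not detectable above the 3-read limit although their host genes were abundant.

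Enzymes of threonine catabolism and one-carbon metabolism formed the metabolic side of the loss. Mouse embryonic stem cells are known to depend on threonine, which threonine dehydrogenase breaks down to feed one-carbon reactions and acetyl-CoA. Of 15 such genes 10 were at least 2-fold lower and 0 higher, with a median of -1.59. Tdh, threonine dehydrogenase itself, went from 200 RPKM in ESC to 0.619 in MES and 0.194 in CP. Psat1, of serine synthesis, went from 223 to 35.3 RPKM, and Mthfd2, the mitochondrial folate enzyme, from 57.9 to 10.0. Mthfd1l, at 35.5 and 18.2 RPKM, and Psph, at 29.4 and 14.8, were just under 2-fold lower. Glycolysis genes were mostly under 2-fold, with 2 of 18 higher, 3 lower and a median of -0.27: Pkm2, pyruvate kinase, stood at 656 and 530 RPKM and Aldoa, aldolase A, at 322 and 273. Within it the glucose transporter Slc2a3 went from 380 to 136 RPKM. Genes of cholesterol synthesis lay on the higher side: 7 of 13 were at least 2-fold higher and 0 lower, with Cyp51, lanosterol demethylase, at 10.2 and 45.4 RPKM and Nsdhl, a sterol dehydrogenase, at 6.35 and 20.

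**Figure D2:**
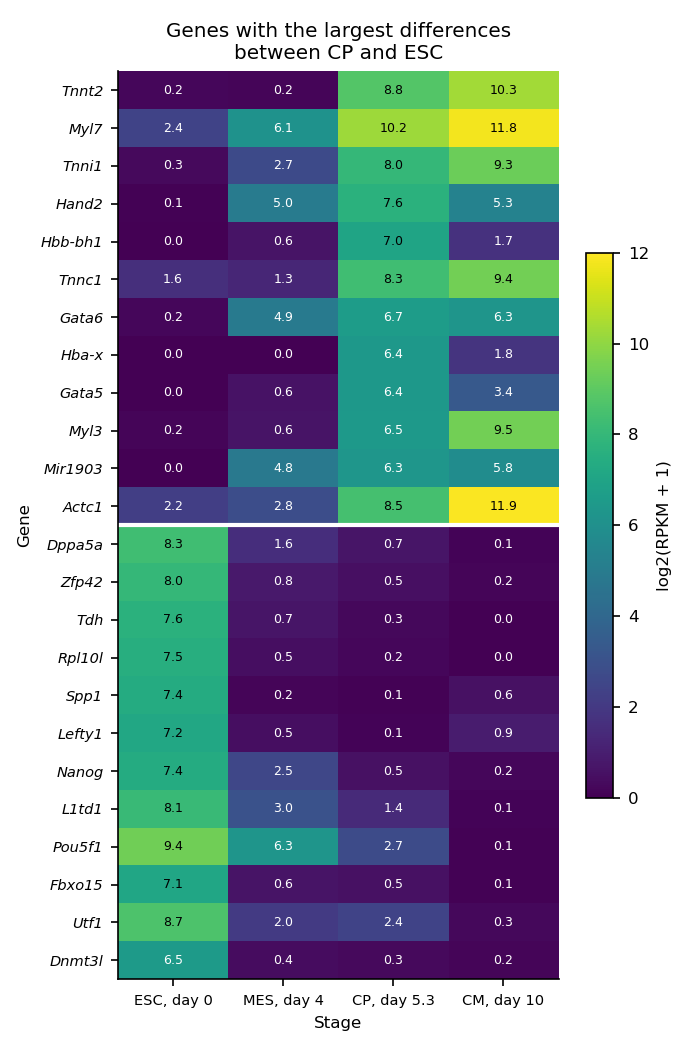
Levels as log2(RPKM + 1) of 24 genes, the 12 furthest above and the 12 furthest below ESC in CP, with stages in columns and genes in rows. The upper 12 rows are the genes higher in CP and the lower 12 the genes lower in CP, so their contrast between the ESC and CP columns follows from the choice. The MES and CM columns were not used to choose them, and there Mir1903, which lies in an exon of Nrp1 in GENCODE M21, is uncertain.

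Most genes of the primitive streak had come and gone by day 5.3. Of 22 such genes, 6 lay 2-fold or more above ESC in CP and 6 below, with a median of -0.19, although the same list had a median of 3.49 in MES relative to ESC. Lefty2, an inhibitor of NODAL, went from 62.6 RPKM in ESC to 0.396 in CP. Snai1, a repressor of epithelial genes, was at 3.99 RPKM in ESC, 94.1 in MES and back at 5.80 in CP. A few members stayed up: Pdgfra, a receptor of paraxial and cardiac mesoderm, was at 0.206 RPKM in ESC, 48.3 in MES and 54.4 in CP, and Aplnr, the apelin receptor, was at 0.0788, 84.1 and 42.9 RPKM. Cyp26a1, which degrades retinoic acid, was at 1.08, 48.0 and 24.3 RPKM. The median of the list is 1.32 when genes under 3 RPKM at both stages are left out.

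Cardiac transcription factors were higher in CP throughout the list. All 22 lay 2-fold or more above ESC, against 17.1% over all genes, with a median difference of 4.23, and their summed level went from 46.9 to 1011.2 RPKM. The smallest difference was 1.21, for Srf, the serum response factor gene that is active in many tissues. None of the 22 owes its place in the table to CP alone, since each exceeds 1 RPKM at another stage too. The list stood at a median of 1.80 in MES and 3.57 in CM relative to ESC, so the precursor stage is where its median lay highest.

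Hand2 (ENSMUSG00000038193), a basic helix-loop-helix factor of the right ventricle and outflow tract, was at 0.0653 RPKM in ESC (11 reads, 0.0326 to 0.117), 30.8 in MES, 199 in CP (28809 reads, 197 to 201) and then 39.5 in CM. Exons of Hand2 overlap the antisense gene Hand2os1, and without strand their reads cannot be told apart. Gata6, a zinc finger factor of heart and endoderm, was at 0.152, 28.7, 99.7 and 75.9 RPKM in the same order. Gata4, its close relative, was at 0.428 RPKM in ESC (126 reads, 0.357 to 0.510), 50.7 in MES, 53.2 in CP and later 59.3 in CM. Gata4 had thus reached its precursor level by day 4, whereas Hand2 and Gata6 were still several-fold below it. Gata5, the third GATA factor of the heart, is listed at 0 RPKM in ESC and stood at 0.503 in MES, 84.2 in CP, with 9.32 in CM. Exons of Gata6 and Gata5 overlap the antisense genes 1010001N08Rik and Gata5os. Mef2c, a MADS box factor of muscle, was at 0.0301, 1.83, 74.6 and 34.3 RPKM. Tbx5, the T-box factor of the first heart field, was at 0.00831, 0.440, 10.0 and 18.8 RPKM. Mef2c, Gata5, Tbx5 and Nkx2-5 were low in MES, so most of their distance from ESC lies between day 4 and day 5.3. Smarcd3, which encodes the heart-enriched BAF60C subunit of the BAF chromatin remodeller, was at 1.25 RPKM in ESC, 13.9 in MES and 41.7 in CP, and its exons overlap the antisense gene Chpf2. The Notch-responsive repressor genes Hey1 and Hey2 were at 2.09 and 0.315 RPKM in ESC and at 12.1 and 8.88 in CP.

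**Figure D3:**
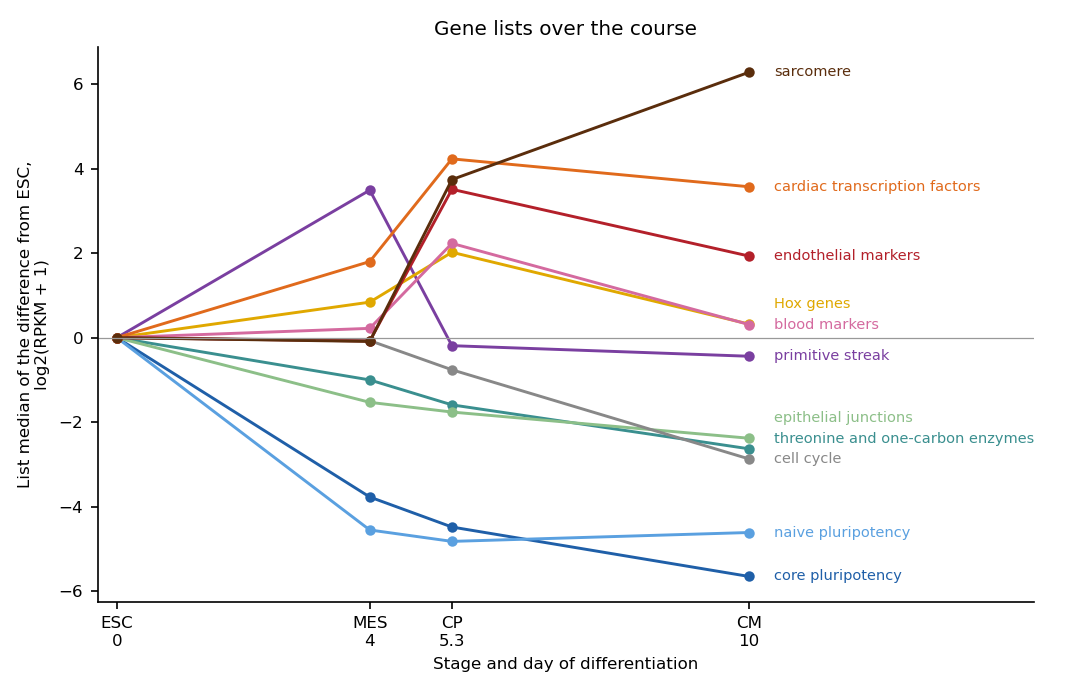
Median difference from ESC of 11 gene lists (y axis, log2(RPKM + 1)) at days 0, 4, 5.3 and 10 (x axis, to scale). Every line starts at 0 because ESC is the common reference. Sarcomere genes and endothelial markers are near 0 in MES, at -0.09 and -0.08, and reach 3.74 and 3.51 in CP, while the primitive streak list reaches 3.49 in MES and is at -0.19 in CP.

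Sarcomere genes, which encode the contractile filaments, were higher in 25 of 30 cases and lower in 0, with a median of 3.74, and their sum went from 141.1 to 3597.3 RPKM. In MES the same list had a median of -0.09 relative to ESC, and in CM it had 6.28. Tnnt2 (ENSMUSG00000026414), cardiac troponin T, had the largest difference of all named genes, 8.57: it was at 0.155 RPKM in ESC, 0.116 in MES, 437 in CP, with 1293 in CM. Myl7, the atrial regulatory light chain, was at 4.27 RPKM in ESC, 68.1 in MES and 1196 in CP, and was the most abundant of the named sarcomere transcripts of CP. Tnni1, slow skeletal troponin I and the fetal cardiac form, was at 0.239, 5.50 and 250 RPKM. Tnnc1, troponin C of heart and slow muscle, was at 2.04, 1.46 and 315 RPKM, so troponin T, I and C were all at 250 RPKM or more in CP. Myl3, the ventricular essential light chain, was at 0.112 RPKM in ESC and 88.9 in CP. The alpha and beta myosin heavy chain genes had similar levels in CP, with Myh6 at 112 RPKM and Myh7 at 106, from 3.33 and 0.534 in ESC. Their transcripts share 31.8% and 31.2% of their words with other genes, so a part of their reads may be placed in either.

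Actc1 (ENSMUSG00000068614), cardiac alpha-actin, went from 3.68 RPKM in ESC and 6.07 in MES to 352 in CP and 3917 in CM. Its skeletal relative Acta1 stood at nearly the same level at both ends of the comparison, at 25.4 RPKM in ESC (2763 reads, 24.4 to 26.3) and 24.4 in CP (2285 reads, 23.4 to 25.4), but it was at 0.525 in MES. Tpm2, beta-tropomyosin, was at 19.4 and 36.9 RPKM, a difference of 0.90. Some sarcomere and muscle genes were still far below their CM level. Actn2, the Z-disc protein alpha-actinin 2, was at 2.41 RPKM in ESC, 8.11 in CP and 540 in CM. Ankrd1, a stress-responsive titin partner, was at 2.61, 14.3 and 544 RPKM, and Hspb7, a small heat shock protein of muscle, had 0 reads in ESC and was at 11.1 RPKM in CP and 247 in CM. Lrrc10, a heart-restricted Z-disc protein, was at 0.223, 2.40 and 57.3 RPKM. Pygm, muscle glycogen phosphorylase, was at 0.747, 3.30 and 87.7 RPKM.

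The promoters of these genes were read for the CArG box, the site bound by serum response factor: CC, then 6 bases that are each A or T, then GG, on either strand. RefSeq windows on GRCm38.p6 from 250 bases before to 50 after a gene's start were found for 22 of the 25 higher sarcomere genes, as 31 windows. A CArG box lay in 7 of the 31 (22.6%), those of Actc1, Ldb3, Myl3, Myl7, Myom1 and Nebl, against 535 of all 32851 windows (1.63%). Ldb3 counts with 2 overlapping windows that hold the same box. Of 17 windows of 14 higher cardiac transcription factor genes 2 held a box, those of Srf itself and Hopx. Of the 4 windows of the 4 higher smooth muscle genes 0 did, and of the 10 core and 12 naive pluripotency windows 0 did. The stretches are shown because the box is the sequence feature by which the sarcomere windows stand apart from the share over all windows. The box is in capitals, the gene's own strand is shown, and a match is a description of the letters, not a bound site.
Actc1 (chr2:114052888-114052947, minus strand): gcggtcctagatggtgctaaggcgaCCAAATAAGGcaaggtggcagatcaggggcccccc
Myl7 (chr11:5898809-5898868, minus strand): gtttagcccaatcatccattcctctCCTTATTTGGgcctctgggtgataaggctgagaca
Myl3 (chr9:110763568-110763627, plus strand): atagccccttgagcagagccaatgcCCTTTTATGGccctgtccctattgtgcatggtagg
Myom1 (chr17:71019433-71019492, plus strand): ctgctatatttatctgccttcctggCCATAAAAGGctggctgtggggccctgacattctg
Ldb3 (chr14:34588682-34588741, minus strand): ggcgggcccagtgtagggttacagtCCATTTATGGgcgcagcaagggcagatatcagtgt
Nebl (chr2:17462984-17463043, minus strand): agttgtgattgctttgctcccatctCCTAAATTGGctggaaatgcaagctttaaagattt
Hopx (chr5:77115172-77115231, minus strand): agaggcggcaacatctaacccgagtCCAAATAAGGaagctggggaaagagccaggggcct
Srf (chr17:46556210-46556269, minus strand): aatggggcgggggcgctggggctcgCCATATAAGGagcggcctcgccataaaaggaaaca
The boxes of Actc1 and Hopx are the same 10 letters. The Srf stretch holds a second box, left in lower case, nearer the start. The boxes begin 47 bases before the start in Actc1, 61 in Myl7, 85 in Myl3, 99 in Myom1 and 162 in Nebl. Myom1, which encodes the M-band protein myomesin 1, Ldb3, a Z-disc protein, and Nebl, which encodes nebulette, were listed as sarcomere genes and are named here for their box. Of the other motifs, the letters AGATAA on either strand, which the GATA factors bind, lay in 16.1% of the sarcomere windows and 11.2% of all, and TATAAA in 12.9% and 13.6%. TATAAA lay in 4 of the 17 cardiac factor windows (23.5%) and in 3 of the 12 naive pluripotency windows (25%). Tnnt2 has the GATA letters 166 bases before its start and no CArG box in this window. In the pluripotency lists the octamer ATGCAAAT, on either strand, lay in 1 of 10 core windows, that of Zfp296, and in 1 of 12 naive windows, that of Zfp42, against 1.74% of all windows. It also lay in 1 of the 17 cardiac factor windows (5.88%), that of Srf, and in 0 of the 31 sarcomere windows.
Zfp42 (chr8:43307163-43307220, minus strand): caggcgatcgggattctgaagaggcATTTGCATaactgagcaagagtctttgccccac
This stretch is shown because Zfp42 had the second largest difference on the lower side, and its octamer, in capitals, lies 186 bases before the start.

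Ion channels and calcium handling genes were mixed: 10 of 22 were at least 2-fold higher and 1 lower, with a median of 0.93. Hcn4, the pacemaker channel of the sinus node and of the early heart tube, was at 0.110 RPKM in ESC, 0.791 in MES and 33.6 in CP, above the 12.5 of CM. Jph2, junctophilin 2, which ties the sarcoplasmic reticulum to the cell membrane, went from 1.92 to 82.6 RPKM. Ryr2, the cardiac calcium release channel, was at 0.563 RPKM in ESC and 11 in CP, and Slc8a1, the sodium-calcium exchanger, at 0.0185 and 9.09, with 53.9 and 79.6 in CM. Atp2a2, the calcium pump SERCA2, was abundant from the start, at 72.3 and 95.7 RPKM. Gja1, which encodes connexin 43, was at 53.2 RPKM in ESC, 153 in MES and 37.1 in CP. Genes of muscle energy metabolism had 4 higher and 4 lower of 15: Cox6a2, the muscle form of a cytochrome oxidase subunit, was at 0.278 and 5.24 RPKM with 229 in CM, while Cpt1a, the liver form of carnitine palmitoyltransferase, was at 9.58 RPKM in ESC and 0.164 in CP. The muscle form Cpt1b was at 1.80 and 16.7 RPKM, but 93.7% of its words are shared with other genes.

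Markers of endothelium and blood, mesodermal lineages beside the heart, were also higher in CP. Of 21 endothelial markers 17 lay 2-fold or more above ESC and 0 below, with a sum of 48.7 RPKM in ESC and 602.2 in CP and a median of 3.51. Cdh5, VE-cadherin, was at 0.115 RPKM in ESC, 0.215 in MES and 71.3 in CP, with 35.5 in CM. Tie1, a receptor of endothelial cells, was at 0.362 RPKM in ESC (134 reads, 0.303 to 0.428) and 50.1 in CP (15961 reads). Kdr, the VEGF receptor that also marks early cardiac mesoderm, was already at 63.2 RPKM in MES and stood at 53.4 in CP. Pecam1, at 16.2 RPKM in ESC and 24.9 in CP, and Eng, at 10.7 and 21, were under 2-fold apart, with ESC levels above 10 RPKM. Primitive blood markers were higher in 16 of 18 cases and lower in 0, with a sum of 5.6 RPKM in ESC and 335.0 in CP. For 10 of these 18 the count says little, since they exceed 1 RPKM only in CP and entered the table through it. Hbb-bh1, an embryonic beta-type globin, had 0 reads in ESC and 5122 in CP, or 129 RPKM (125 to 132), at least 1986-fold higher than the 3-read limit of 0.0649 RPKM. Hba-x, the embryonic alpha-type globin, is listed at 0 RPKM in ESC and MES and stood at 84.7 in CP, with 2.49 in CM. Tal1, the factor that specifies blood and endothelium, was at 0.157 RPKM in ESC, 4.23 in MES and 21.9 in CP. What part these cells have in the differences of the other lists was not tested.

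Smooth muscle markers stood at a sum of 357.0 RPKM in ESC and 715.3 in CP, with 4 of 9 genes higher and 1 lower. In ESC most of this sum came from 2 of the 9 genes: Acta2, smooth muscle alpha-actin and also a gene of the early heart, was at 131 RPKM in ESC, 1.96 in MES and 498 in CP, and Tagln, which encodes SM22, at 134, 2.26 and 43.2, with exons that overlap the antisense gene Pcsk7. Mylpf and Actn3, a light chain and an actinin of fast skeletal muscle, had 59.0 and 32.1 RPKM in ESC and 2.63 and 4.22 in CP. The neuronal genes Tubb3 and Stmn2 had 97.2 and 101 RPKM in ESC and 0.527 and 6.59 in CP. The creatine kinase gene Ckb had 218 RPKM in ESC and 45.8 in CP, and the small heat shock gene Hspb1 had 74.5 and 4.85, with 56.4% of its words shared. For these 8 genes the ESC value was above the MES value. Other members of the same lists were low in ESC, such as Tnnt3, a fast skeletal troponin T, at 0.701 RPKM and Elavl3, a neuronal RNA-binding protein gene, at 3.23. The source of the 8 transcripts in the ESC cultures was not tested. Of the other lists for cell types, neural markers had 0 of 6 higher and 3 lower (sum 215.7 to 28.4 RPKM), endoderm markers 3 of 8 higher and 1 lower (6.7 to 30.2 RPKM, with 1 of the 8 in the table through CP alone), trophoblast markers 2 of 7 higher and 4 lower (45.6 to 10.6 RPKM), epicardial markers 4 of 6 higher and 0 lower (2.6 to 20.3 RPKM, with 2 of the 6 in the table through CP alone) and skeletal muscle markers 2 of 4 higher and 2 lower (92.0 to 20.2 RPKM). Sox17, in endoderm and also in endothelium, was at 0.104 RPKM in ESC and 11.5 in CP, and Ttr, transthyretin, is listed at 0 in ESC and stood at 1.91 in CP. Tcf21, a factor of epicardial and other mesenchyme, was at 0.0209 and 10.1 RPKM, and Wt1, the epicardial zinc finger gene, stood at 1.26 and 0.147 RPKM, a difference of -0.98 that is just under 2-fold on this scale. Members of these lists without a value, among them Afp, Hnf4a, Sox1, Myod1 and Tbx18, were not analysed here.

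**Figure D4:**
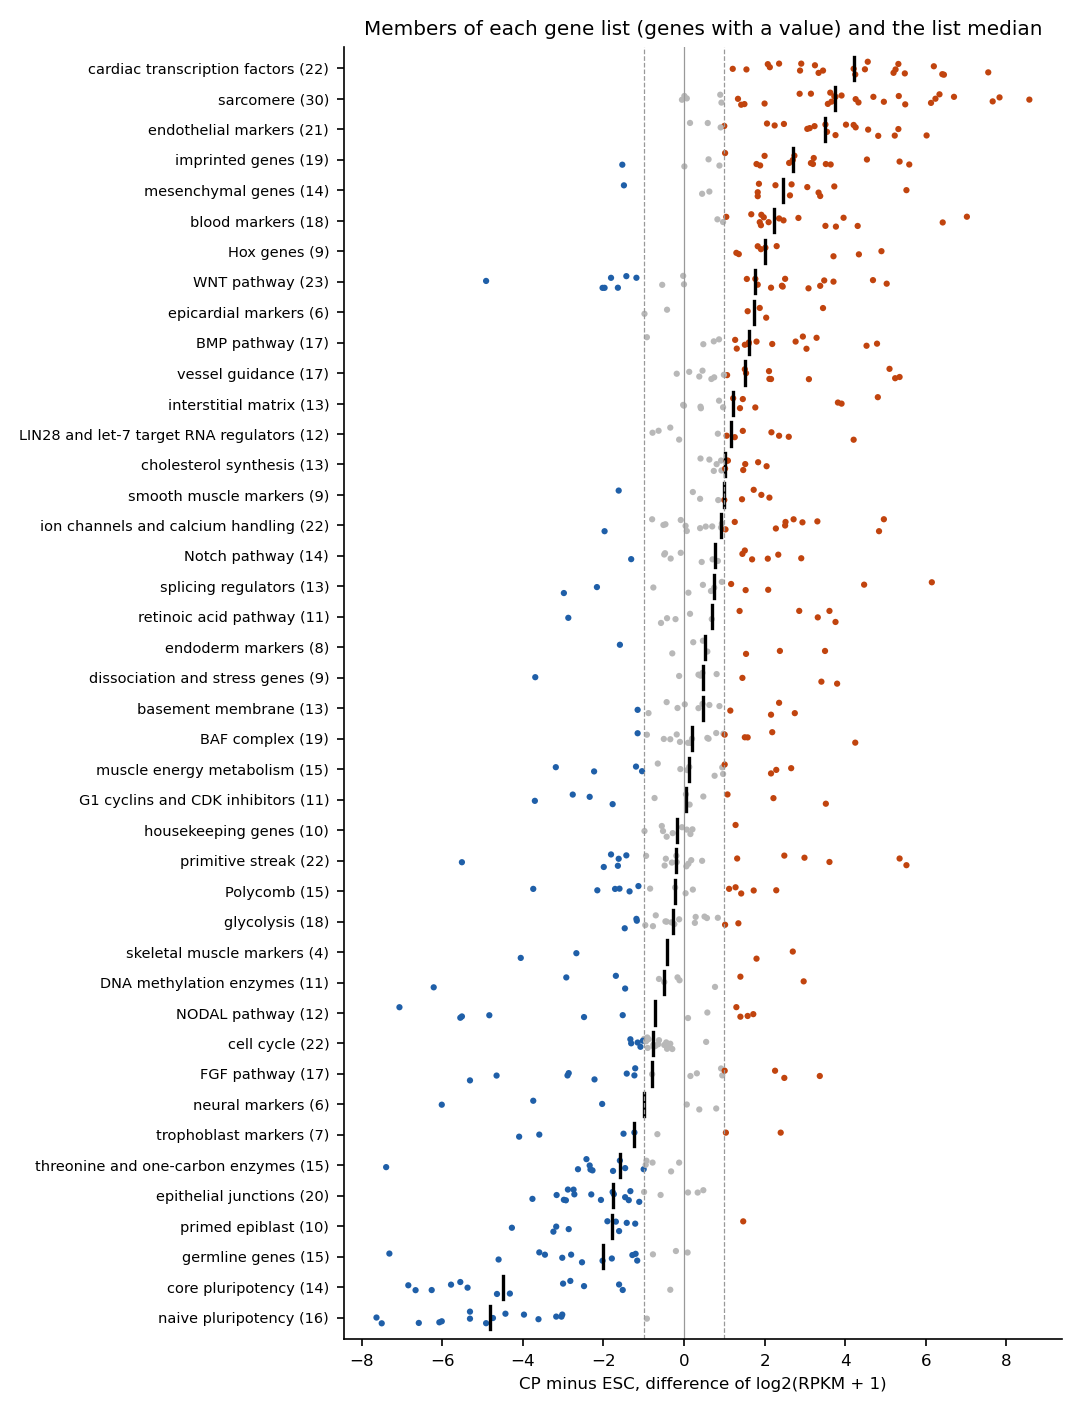
Each point is a gene with a value in 1 of the 42 lists (rows, with the number of genes), placed by CP minus ESC of log2(RPKM + 1); black bars are list medians and dashed lines mark 2-fold. Cardiac transcription factors stand at the top with a median of 4.23 and all 22 points beyond 2-fold. Naive and core pluripotency stand at the bottom with -4.82 and -4.48.

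Epithelial adhesion genes were lower and mesenchymal genes higher. Of 20 genes of epithelial junctions 15 were at least 2-fold lower and 0 higher, with a median of -1.76, and of 14 mesenchymal genes 11 were higher and 1 lower, with a median of 2.45. Cdh1, E-cadherin, went from 138 RPKM in ESC (47701 reads, 137 to 140) to 31.5 in MES and 9.30 in CP (2755 reads, 8.95 to 9.65). Cdh2, N-cadherin, was at 2.05 RPKM in ESC, 35.0 in MES and 17.9 in CP. Epcam, an epithelial adhesion molecule, went from 93.0 to 9.49 RPKM, and Grhl2, a transcription factor that maintains epithelia, from 13.4 to 0.882. The keratins of simple epithelia did not follow: Krt8 stood at 66.9 and 84.8 RPKM and Krt18 at 132 and 142. Twist1, a mesenchymal basic helix-loop-helix factor, went from 1.95 to 29.6 RPKM and Tgfb2, a growth factor of the endocardial cushions, from 3.09 to 53.3. Of 13 genes of the interstitial matrix 7 were higher and 0 lower. Vcan, the versican of cardiac jelly, was at 5.84 and 102 RPKM, Has2, hyaluronan synthase 2, at 0.869 and 25.4, and Fbn1, fibrillin 1, at 1.33 and 64.3. Basement membrane genes had 4 of 13 higher and 1 lower, with Col4a1, a type IV collagen chain, at 11.9 and 65.6 RPKM and Nid2, nidogen 2, at 130 and 57.8.

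Among the signalling pathways, RNA of the NODAL ligands and feedback inhibitors was lower in CP. Of the 12 NODAL pathway genes 6 were at least 2-fold lower and 4 higher. Nodal was at 42.4 RPKM in ESC (6695 reads, 41.4 to 43.4) and 0.523 in CP (71 reads, 0.409 to 0.660). Gdf3, a related ligand, went from 52.6 to 0.145 RPKM, and Lefty1, a secreted inhibitor, from 145 to 0.0966 (11 reads, 0.0482 to 0.173). The coreceptor genes exchanged places: Tdgf1, which encodes CRIPTO, went from 144 to 24.9 RPKM, and Cfc1, which encodes CRYPTIC, was at 0.30 RPKM in ESC (17 reads, 0.175 to 0.481), 54.8 in MES and 49.2 in CP. The intracellular mediator Smad2 stood at 20.6 and 22.1 RPKM and the receptor gene Acvr2a at 2.89 and 4.81. Their relatives were among the 4 higher genes. Smad3 had the largest difference on the higher side of the list, 1.72. The receptor genes Acvr1b and Acvr2b went from 7.77 to 22.1 and from 13.6 to 35.1 RPKM.

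BMP pathway genes lay on the higher side, with 13 of 17 at least 2-fold higher, 0 lower and a median of 1.61. The ligand gene Bmp5 is listed at 0 RPKM in ESC and stood at 12.5 in MES and 26.7 in CP. Bmp7 was at 0.677 and 37.6 RPKM and Bmp2 at 0.698 and 15.6, and Bambi, a decoy receptor induced by the pathway, at 2.70 and 29.4. Smad7 had the lowest difference of the list, -0.92. BMP4 protein was itself added to the medium. In the WNT pathway 13 of 23 genes were higher and 7 lower. Wnt2, a ligand of cardiac mesoderm, was at 0.0353 RPKM in ESC and 25.8 in CP, and the receptor gene Fzd1 at 0.698 and 21.2. Sfrp5, a secreted WNT antagonist of the cardiac crescent, was at 1.77 RPKM in ESC (254 reads), 0.476 in MES, 89.8 in CP (11056 reads) and 0.0951 in CM. Notum, an enzyme that inactivates WNT ligands, went from 32.4 to 0.114 RPKM. The targets Axin2 and Lef1 were at 5.79 and 3.87 RPKM in ESC, 24.3 and 21.2 in MES and 3.66 and 3.79 in CP, so they passed through a peak at day 4 and were back near the stem cell level.

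FGF pathway genes lay on both sides: 8 of 17 were lower and 4 higher. Fgf4, the autocrine ligand of stem cells, went from 46.8 to 0.209 RPKM and Fgf17 from 31.4 to 0.293, whereas Fgf10, a ligand of the second heart field, was at 0.115 and 4.33 and the receptor gene Fgfr3 at 0.313 and 12.5. FGF10 protein was itself added to the medium. The feedback genes Spry2 and Dusp6 stood at 61.7 and 35.4 and at 50.0 and 62.7 RPKM. Not all of the lower genes were ligands: Etv5, also in the primed epiblast list, went from 96.4 to 12.4 RPKM. The receptor gene Fgfr2 went from 5.36 to 1.71 RPKM. In the Notch pathway 6 of 14 genes were higher and 1 lower, with Dll4, an endothelial ligand, at 0.0949 and 4.53 RPKM. Of 17 genes of vessel guidance 10 were higher and 0 lower. Plxnd1, a semaphorin receptor of endothelium and outflow tract, was at 0.917 RPKM in ESC, 8.53 in MES and 71.5 in CP, and Nrp1, a coreceptor for VEGF and semaphorins, at 0.970, 57.4 and 66.7.

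Genes of the retinoic acid pathway, which sets the posterior limit of the heart field, had 5 of 11 higher and 1 lower. Crabp1, which binds retinoic acid in the cell, was at 12.5 RPKM in ESC (757 reads), 213 in MES, 182 in CP (9466 reads) and 3.72 in CM. The receptor gene Rarg went from 44.0 to 5.14 RPKM and Rarb from 0.214 to 11.1. Aldh1a2, the synthesizing enzyme, was high only in MES, at 45.2 RPKM, and stood at 0.745 in ESC and 0.307 in CP. All 9 Hox genes with a value were higher, with a sum of 1.8 RPKM in ESC and 85.1 in CP. The count is weak, because 4 of the 9 exceed 1 RPKM only in CP and 6 further Hox genes of the list were not analysed here. The anterior Hoxb genes led: Hoxb2 was at 0.0481 and 30.4 RPKM, Hoxb3 at 0.0447 and 20.2, Hoxb1 at 0.189 and 14.6 and Hoxb4 at 0.106 and 4.46. Exons of Hoxb2 and Hoxb3 overlap the antisense gene Hoxb3os, listed at 0 RPKM in ESC and 30.2 in CP. Without strand their reads cannot be told apart. Hoxb1 was higher in MES, at 24.1 RPKM, than in CP, while Hoxb4 was still at 0.340 in MES.

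Imprinted genes, expressed from the copy of 1 parent, were higher in 15 of 19 cases and lower in 1, with a median of 2.70, and their sum went from 434.7 to 3515.7 RPKM. Igf2, insulin-like growth factor 2, had the largest gain in RPKM of all named genes, from 25.5 in ESC and 107 in MES to 1277 in CP. Of its words 76.0% are shared with other genes. H19, the noncoding RNA next to Igf2, was at 3.89 and 112 RPKM, and Igf2r, the receptor that clears IGF2, at 18 and 235. Igf2 is known to be expressed from the paternal copy and H19 and Igf2r from the maternal copy, and all 3 were higher. Dlk1, a Notch-like growth regulator, was at 2.92 and 158 RPKM. Cdkn1c, which encodes the CDK inhibitor p57, went from 45.1 to 527 RPKM. Phlda2, a growth restraint of placenta, was at 72.1 RPKM in ESC, 494 in MES and 111 in CP, and Impact, a translation regulator, stood at 38.4 and 38.7.

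Chromatin regulators had genes on both sides. Of 19 BAF complex genes 5 were higher and 1 lower, against 17.1% and 13.9% over all genes, with a median of 0.20. Of the 5, Dpf3, at 0.0513 RPKM in ESC and 1.99 in CP, is in the table through CP alone. The ATPase Smarca4 stood at 74.6 and 84.3 RPKM, while its paralog Smarca2 went from 0.422 to 5.47 and Smarcd3, noted among the cardiac factors, from 1.25 to 41.7 beside Smarcd1 at 69.9 and 49.3. Of 15 Polycomb genes 5 were higher and 6 lower: Cbx7, the chromobox protein of stem cells, went from 70.3 to 4.33 RPKM, and its paralog Cbx2 from 7.74 to 28.0. Eed, a core subunit, went from 67.5 to 14.4 RPKM, and Ezh2, the methyltransferase, stood at 41.1 and 35.3. Among 11 DNA methylation genes 4 were lower and 2 higher. Dnmt3l, the cofactor of de novo methylation, went from 90.5 RPKM in ESC (19923 reads) to 0.238 in CP (45 reads, 0.173 to 0.318). Tet1, the 5-methylcytosine oxidase of stem cells, went from 60.0 to 7.08 RPKM and Tet3 from 1.84 to 21.2, while the maintenance enzyme Dnmt1 stood at 77.2 and 71.2.

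Of 13 splicing regulators 5 were higher and 2 lower, with a median of 0.75. Rbm24, a splicing factor of striated muscle, was at 0.0867 RPKM in ESC (21 reads, 0.0537 to 0.133), 13.9 in MES and 76.1 in CP (15848 reads, 74.9 to 77.3). Rbm20, the titin splicing factor, was at 0.319, 4.22 and 28.3 RPKM. Esrp1 and Esrp2, which drive epithelial splicing, went from 16.0 to 1.16 and from 4.70 to 0.278. Of 12 genes of the LIN28 and let-7 system, regulators as well as targets, 7 were higher and 0 lower: Hmga2, a let-7 target, was at 9.44 RPKM in ESC, 281 in MES and 193 in CP, and Igf2bp3, an mRNA-binding protein gene, at 8.62, 42.8 and 42.3.

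In 23 pairs of related genes, the first member is the one known from stem cells or general use. The pairs were drawn up with earlier results of these data known, so their pattern is a description. In 6 pairs the first gene was at least 2-fold lower and the second at least 2-fold higher: Sox2 and Sox18, Tdgf1 and Cfc1, Fgf4 and Fgf10, Cdh1 and Cdh2, Cldn6 and Cldn5, and Tet1 and Tet3. In 5 pairs only the second was higher, as for Actc1 at 352 RPKM in CP beside Actb, cytoplasmic beta-actin, at 1873 RPKM in ESC and 1806 in CP. In 4 pairs only the first was lower, among them Klf2, a factor of naive cells, from 165 to 6.72 RPKM beside Klf6 at 14.7 and 16.7. Mycn and Myc were lower together, from 125 to 23.0 and from 32 to 7.59 RPKM. Cldn5, the claudin of endothelial cells, was at 1.59 RPKM in ESC, 0.0457 in MES and 48.5 in CP, and Sox18, an endothelial factor, at 1.23, 0.349 and 62.1. Both belong to the endothelial list as well.

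**Figure D5:**
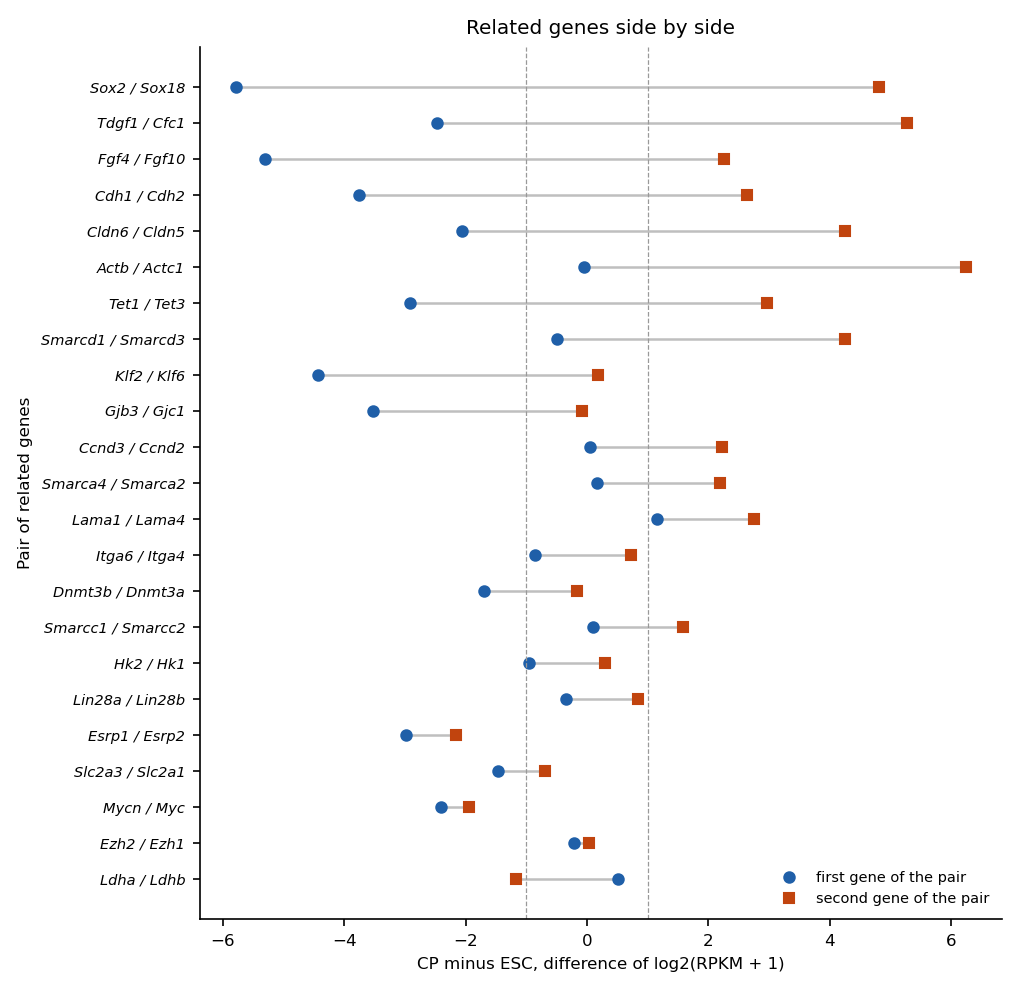
CP minus ESC of log2(RPKM + 1) for both genes of 23 pairs; circles are the first gene, squares the second, and dashed lines mark 2-fold. In 6 pairs the circle lies left of the lower line and the square right of the upper line, with Sox2 at -5.78 and Sox18 at 4.82 the widest apart.

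Most proliferation genes were under 2-fold apart at day 5.3. Of 22 cell cycle genes 17 were under 2-fold, 5 lay 2-fold or more below ESC, against 13.9% of all genes, and 0 above, with a median of -0.76, and the same list reached -2.87 in CM. Mcm5, of the replicative helicase, stood at 251 and 99.6 RPKM and Cdc20, an activator of mitotic exit, at 147 and 58.6. Mcm7 was at 74.9 and 34.8 RPKM, but it was under 2-fold in 3 of the other scalings. The G1 regulators differed more: Ccne1, cyclin E1, went from 99.1 to 13.7 RPKM and Ccnd2, cyclin D2, from 22.8 to 110, while Cdkn2a, the Ink4a and Arf locus, went from 17.3 to 0.409. Of 9 genes known to respond to dissociation and stress 3 were higher and 1 lower, with Fos at 2.68 RPKM in ESC, 41.9 in MES and 50.3 in CP and Jun at 6.25, 60.6 and 76.1. Cells were dissociated before plating, and the part of that step was not tested. Of 10 housekeeping genes 1 was higher, B2m, a subunit of MHC class I, at 9.74 and 25.2 RPKM, and 0 were lower.

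Several genes were high in CP and low in CM. The 6 genes that lay 2-fold or more above ESC in CP and had the lowest level in CM relative to CP were Hbb-bh1, Hba-x, Pyy, Sfrp5, Crabp1 and Aplnr. Pyy, a gut peptide gene, had 2 reads in ESC (0.00559 to 0.167 RPKM) and stood at 0.140 in MES, 70.9 in CP (2642 reads) and 0.845 in CM. The level in CM was a criterion of this choice, and the MES level was not. In MES, Crabp1 and Aplnr were already above their CP level, whereas Pyy, Sfrp5 and both globin genes were under 1 RPKM, so 2 of the 6 had their high level before the precursor stage and 4 did not.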

How the data were processed

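Per the labels' protocols, libraries were prepared from TRIzol-extracted, poly(A)-selected and fragmented RNA with PCR enrichment, and were read on an Illumina GAIIx. Per the submitters' processing notes, alignment used Novoalign 2.07.00 and build mm9. Not given in the sources used here are the read counter, the gene models and the way 2 libraries became 1 column. The values are RPKM as deposited by the authors, per the file headers, in 1 column per stage. Each gene exceeds 1 RPKM at 1 stage or more (lowest maximum 1.00017).

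Differences of log2(RPKM + 1) and counts of genes past 2-fold were computed with Python 3.11.15, pandas 2.3.3 and numpy 2.4.6 and tested on simulated data. The planned limma test and the leaving out of replicates need library columns and were not run. Whole reads were recovered from the steps between values (relative tolerance 1e-06) for 5172 genes (38.2%), with depths in 1 M (1000000) reads of 75.3 for ESC, 64.8 for CP, 62.0 for MES and 88.5 for CM, set with GENCODE M21 gene lengths. A 2 kb gene at 1 RPKM thus has 151 reads in ESC and 130 in CP. Intervals are exact Poisson (scipy 1.17.1) and the detection limit is 3 reads. Strand was not used: of 283 named genes, 101 have exons that overlap another gene. More than 50% of the 32-base words of 8 named genes are shared with other genes.

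The gene lists, the pairs and the comparison itself were chosen with earlier results of these data known. Of the 668 names in the lists, 612 places had a value, and 4 names were matched by gene ID or synonym. Named were the 12 largest differences and the 8 largest RPKM changes in each direction (clone numbers and histones left out), up to 4 members of each list at least 2-fold apart and 2 others of high level, all pair members, 12 markers, and 6 genes each with the highest and lowest CM level relative to CP. The miRNA genes, and Myom1, Ldb3, Nebl, Hopx, Srf and Zfp296, named for a motif, were added after their values were seen. So were Acvr1b, Acvr2b, Smad3, Fgfr2 and Hoxb3os. A few listed genes are not reported here.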

Additional observations from a re-analysis of the deposited data

How the results depend on the processing

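Pseudocounts of 0.1 and 0.5 gave 3198 and 2761 genes higher and 2376 and 2153 lower. A minimum of 4-fold left 758 and 496. Genes that reach 3 RPKM gave 1988 and 1564, and leaving out clone names gave 2132 and 1660. Scaling each stage to an equal sum of 1000000, from 264636 RPKM in ESC and 240579 in CP, gave 3383 and 2004. This raises all values while the added 1 stays, so it also acts like a smaller pseudocount. Setting the median ratio of genes over 10 RPKM to 0 gave 2717 and 1629. These scalings moved the median of all genes from 0.05 to 0.18 and 0.17. Of 283 named genes, 0 that were 2-fold apart changed sign under these alternatives, and up to 18 crossed the 2-fold line with another scaling or pseudocount. List medians changed sign for primitive streak genes (1.32) and G1 cyclins (-0.34) with the 3 RPKM minimum, skeletal muscle markers (0.26 with a pseudocount of 0.1, 0.14 with equal sums), and G1 cyclins (-0.11) and housekeeping genes (0.07) after quantile normalization. In 200 bases before the start, the CArG box share was 22.6% in sarcomere windows and 1.18% in all. No paired analysis was possible because the table has no columns for single libraries, which also prevents leaving out a replicate. Counting precision limits genes with few reads, such as Mesp1, and says nothing on the spread between libraries.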
